A study of Mus musculus with 8 samples.

Results

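The transcription factors that direct granulopoiesis, the making of neutrophils from myeloid progenitors, were followed as 9 genes in neutrophils of the mouse spleen. They are the C/EBP family genes Cebpa, Cebpb, Cebpd, Cebpe and Cebpg, and Gfi1, Spi1, Runx1 and Irf8. The 9 genes were taken by symbol from the 55414 genes listed in the count files, through the GENCODE M21 annotation of GRCm38, and all 9 were found and passed the filter on low counts. The libraries came from 4 wild-type (WT) and 4 Cxcr2-/- mice, 10 weeks old, on the FVB strain and kept under SOPF (specific and opportunistic pathogen-free) housing, with 1 library per mouse. Cxcr2 is a chemokine receptor that neutrophils use to leave the bone marrow and to reach inflamed tissue. Per the study's methods, the Cxcr2-/- line is a knockout backcrossed to FVB and the controls were FVB mice, and flow sorting, after an enrichment for CD11b, took the spleen cells positive for CD45, CD11b and Ly6G and negative for the macrophage protein F4/80. The knockout is not limited to neutrophils, so other cells of the Cxcr2-/- mice lack the receptor too.

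The regulators act in a known sequence. PU.1, encoded by Spi1, and Runx1 open the myeloid program, and PU.1 remains in use in mature myeloid cells. C/EBPα (Cebpa) commits progenitors to the granulocyte and monocyte lineage, and Irf8 turns them towards monocytes and dendritic cells. Gfi1 and C/EBPε (Cebpe) then drive the promyelocyte and myelocyte steps, in which primary and secondary granules are filled, and C/EBPβ (Cebpb) and C/EBPδ (Cebpd) rise in later or stimulated cells. C/EBPγ (Cebpg) lacks an activation domain and pairs with other family members and with ATF4. Cebpe is known as the factor needed for secondary granule genes.

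The labels held up against the targeted gene, since Cxcr2 RNA was at 1719 to 2252 CPM (a gene's counts scaled to a fixed library size by edgeR's TMM method) in WT and at 12.9 to 20.7 CPM in Cxcr2-/- libraries. Counts on genes per library ran from 34220182 to 46233555, and the regulator with the fewest counts, Irf8, had 109 to 508 counts in a library. The neutrophil markers Ly6g, S100a8, Csf3r and Camp were all at 166 CPM or more in every library, but they differed between the groups. Ly6g, S100a8 and Camp were higher in Cxcr2-/- libraries (Ly6g 539 against 226 CPM in WT) and Csf3r was lower (3334 against 6960 CPM). Of 9 neutrophil markers, 6 were higher, 2 were lower and 1 did not pass the test described below. Of the markers of other cells, 8 B cell genes summed to 73.6 to 158 CPM in WT and 31.5 to 74.0 CPM in Cxcr2-/- libraries. Of these, 6 were lower and 2 did not pass. For 11 monocyte and macrophage genes the sum was 470 to 563 against 225 to 416 CPM, with 2 higher, 2 lower and 7 that did not pass. For 6 T cell genes the sum was 100 to 133 against 99.0 to 150 CPM, with 2 of 5 tested lower. The remaining lists of non-neutrophil markers each summed to 56.9 CPM or less in every library. Among the 44 tested non-neutrophil markers the mean log2 (CPM + 1) was 1.87, 1.67, 2.33 and 2.49 in Cxcr2-/- replicates 1 to 4, and 1.93 to 2.53 in WT. Some of these markers differed between the groups, so their mean is not free of the group difference. In RNA from a sorted pool, fewer cells that use a gene and less RNA of it per cell cannot be told apart.

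For 3 of the 4 regulators that changed, DNA next to an annotated start is shown from the RefSeq promoter table (GRCm38.p6). The table had an entry for 6 of the 9 genes. Cebpd, Cebpe and Spi1 had none. Each line runs 5′ to 3′ on the gene's strand up to the start. Cebpa (chr7:35119043-35119292, plus strand) and Cebpb (chr2:167688665-167688914, plus strand) have 250 bases, which lie in front of the gene. Gfi1 (chr5:107725806-107725954, minus strand) has the 149 bases before the farther upstream of its 2 RefSeq starts. These lie inside the annotated gene, in an intron of a longer Gfi1 transcript, and within an exon of A430072P03Rik on the opposite strand. Capitals mark matches to the motifs listed after the sequences.
Cebpa: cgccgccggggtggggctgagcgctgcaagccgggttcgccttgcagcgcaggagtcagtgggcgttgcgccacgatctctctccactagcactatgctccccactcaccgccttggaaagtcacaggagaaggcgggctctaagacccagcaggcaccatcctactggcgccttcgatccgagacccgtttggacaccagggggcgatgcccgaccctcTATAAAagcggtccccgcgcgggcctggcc
Cebpb: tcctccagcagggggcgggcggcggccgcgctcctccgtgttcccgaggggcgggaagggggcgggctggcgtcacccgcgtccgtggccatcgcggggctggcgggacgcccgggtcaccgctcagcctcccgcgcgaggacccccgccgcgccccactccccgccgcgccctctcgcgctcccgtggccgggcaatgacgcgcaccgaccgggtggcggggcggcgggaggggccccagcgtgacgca
Gfi1: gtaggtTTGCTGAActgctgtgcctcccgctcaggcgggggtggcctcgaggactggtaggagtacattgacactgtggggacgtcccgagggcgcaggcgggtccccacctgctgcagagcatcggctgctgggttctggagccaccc

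The motifs were searched on both strands of the 9 windows of 300 bases (250 before and 50 after the start) that the 6 genes had, and of all 32851 windows in the table. The C/EBP motif TTGCNNAA was found in 1 window, that of Gfi1 shown above as TTGCTGAA at 143 bases before the start, and in 10.8% of all windows. The TATA box TATAAA, added to the search after the sequences had been read, was found in a window of Cebpa, Cebpb and Irf8, at 30 bases before the start of Cebpa, and in 13.6% of all windows. In Cebpb it lay past the start, outside the stretch shown. The Ets motif GAGGAA, which PU.1 binds, was in 1 window of Runx1 and in 28.3% of all windows, and the Runx motif TGTGGT in 1 window of Runx1 and in 16.8% of all. The Gfi1 motif AAATCNNNG (10.6% of all windows) and the cAMP response element TGACGTCA (1.79%) were in none of the 9 windows. The CCAAT box was in 4 windows, of Cebpg, Irf8 and Runx1, against 37.4% of all. The upstream stretch of Cebpb was 81.6% G and C, above the 66.4% of both Cebpa and the Gfi1 stretch. A match is a run of letters, and binding was not measured.

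Of the 9 regulators, 2 were higher in Cxcr2-/- neutrophils (Cebpe and Gfi1), 2 were lower (Cebpa and Cebpb) and 5 did not pass the test (Cebpd, Cebpg, Spi1, Runx1 and Irf8). A gene passed when edgeR's quasi-likelihood test gave a Benjamini-Hochberg adjusted p under 0.05 over the 16778 genes tested. By that rule 23.7% of all genes tested were higher and 21.0% were lower, 44.7% in all, so that the share of regulators that passed was near that of all genes. In the same 4 regulators the WT and Cxcr2-/- libraries did not overlap in CPM, which held for 41.6% of all genes tested (22.5% higher, 19.1% lower). The median log2 fold change of the 9 genes was -0.06, beside 0.01 for all genes tested. The 4 genes passed in each of 16 alternative fits.

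**Figure D1:**
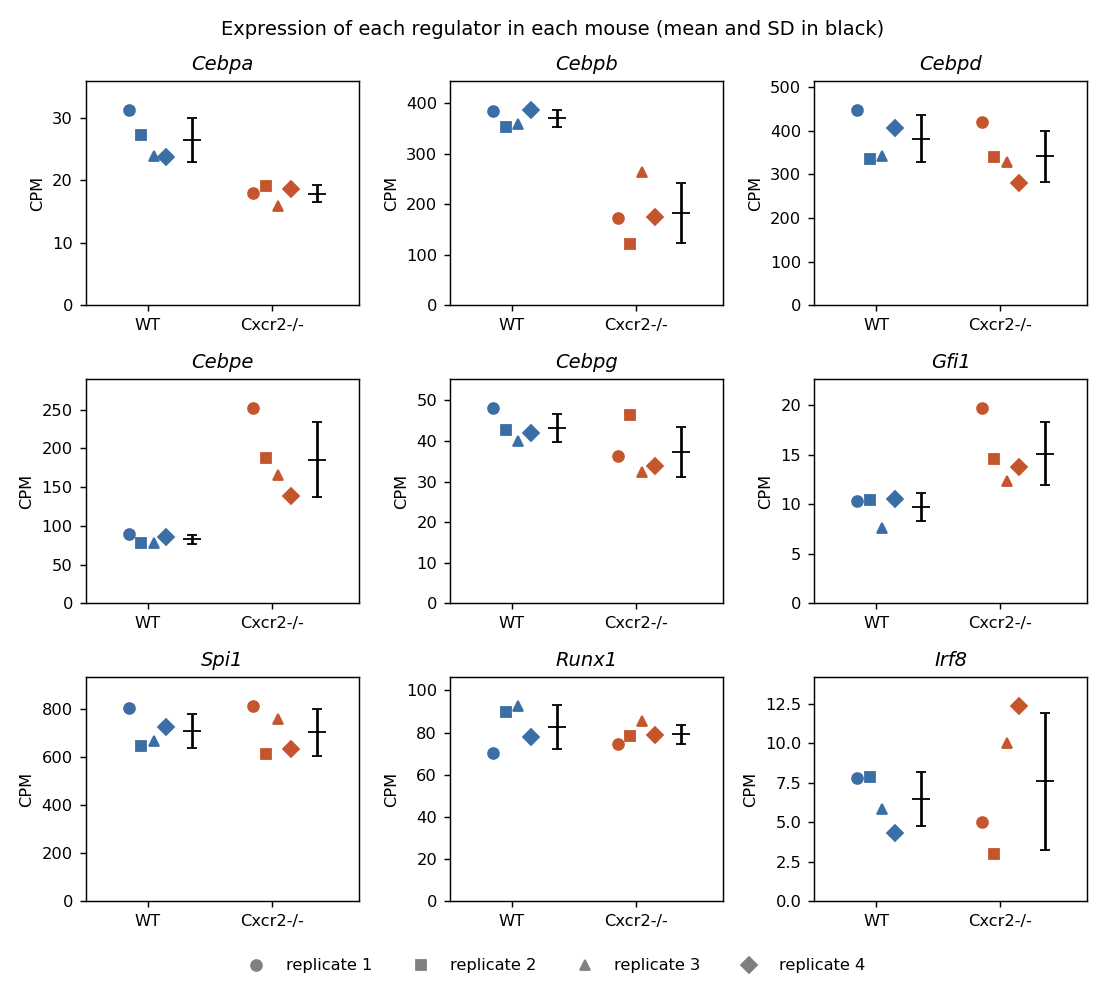
Expression of the 9 regulators (CPM, linear axes from 0) in each of the 4 WT and 4 Cxcr2-/- mice, with the mean and SD of each group in black. Cebpe and Gfi1 lie higher and Cebpa and Cebpb lower in all 4 Cxcr2-/- mice, while the groups overlap for the other 5 genes.

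Cebpe, at chr14:54710360-54712174 on the minus strand, had the largest fitted change of the 9, although Cebpb exceeded it in size with upper-quartile normalization (-1.13 against 1.04 on the log2 scale), with library totals (-1.10 against 1.06) and without Cxcr2-/- replicate 3 (-1.25 against 1.20). Cebpe RNA was at 89.4, 77.4, 77.7 and 86.3 CPM in WT replicates 1 to 4, and at 252, 187, 165 and 138 CPM in Cxcr2-/- replicates 1 to 4. Every Cxcr2-/- mouse was above every WT mouse, and the knockout mice were spread more widely (26.1% of the mean as SD, against 7.36% in WT). The mean rose from 82.7 ± 6.09 to 186 ± 48.4 CPM (SD, n = 4 each), 2.24-fold, or 1.17 ± 0.15 on the log2 scale (SE; 95% interval 0.79 to 1.54; adjusted p = 6.58e-05). A change at least as large in either direction was found in 13.5% of the genes tested. The fold change stayed between 0.99 and 1.26 on the log2 scale when single libraries were left out.

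Gfi1, at chr5:107716657-107726036 on the minus strand, encodes a repressor that holds back monocyte genes during neutrophil differentiation. It was at 10.3, 10.4, 7.56 and 10.6 CPM in WT replicates 1 to 4, and at 19.7, 14.6, 12.4 and 13.8 CPM in the Cxcr2-/- replicates. The highest WT mouse was below the lowest Cxcr2-/- mouse, and replicate 1 was the highest of the Cxcr2-/- mice for Gfi1 as for Cebpe. Gfi1 rose 1.55-fold, with a log2 fold change of 0.64 ± 0.16 (SE; 95% interval 0.24 to 1.03; adjusted p = 0.00684). This was a middling change in this comparison, since 36.1% of the genes tested changed at least as much. A430072P03Rik, on the opposite strand, overlaps 3.17% of its exon bases and had 26 to 75 counts per library, beside 283 to 779 for Gfi1.

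Cebpb, at chr2:167688915-167690418 on the plus strand, encodes a factor of activated and emergency granulopoiesis. Its levels were 384, 352, 358 and 386 CPM in WT replicates 1 to 4 and 174, 121, 264 and 175 CPM in Cxcr2-/- replicates 1 to 4. The 4 WT mice lay close together, and all 4 Cxcr2-/- mice were lower, with replicate 3 nearest to WT. Cebpb fell from 370 ± 17.4 to 183 ± 59.3 CPM, 2.02-fold lower, with a log2 fold change of -1.01 ± 0.18 (SE; 95% interval -1.46 to -0.57; adjusted p = 6.48e-04). The non-neutrophil marker mean was higher in Cxcr2-/- replicates 3 and 4 than in 1 and 2. Cebpb was highest in replicate 3 (264 CPM) and lowest in replicate 2 (121 CPM), with replicates 1 and 4 at a like level (174 and 175 CPM). The part of other cells' RNA in the Cebpb values was not tested. With the non-neutrophil marker mean as a covariate the log2 fold change was -0.93, and without Cxcr2-/- replicate 3 it was -1.25. Tmem189, on the opposite strand, covers 20.7% of the exon bases of Cebpb and had 1751 to 2505 counts per library, against 4366 to 17529 for Cebpb. The study's library kit was directional, but the strand setting of the counting is not given in the sources used here. Whether reads at this overlap were counted for either gene or set aside as ambiguous cannot be told.

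Cebpa, at chr7:35119293-35121928 on the plus strand, was at 31.2, 27.2, 23.8 and 23.8 CPM in WT replicates 1 to 4 and at 18.0, 19.1, 15.9 and 18.6 CPM in Cxcr2-/- replicates 1 to 4. Here the knockout mice were the tighter group, and each was below each WT mouse. Cebpa fell from 26.5 ± 3.52 to 17.9 ± 1.40 CPM, with a log2 fold change of -0.57 ± 0.11 (SE; 95% interval -0.85 to -0.29; adjusted p = 0.00140). The decrease, 1.48-fold, lies just under the 1.5-fold limit that the study used, so under that limit Cebpb was the 1 regulator called lower and Cebpe and Gfi1 were called higher, beside 15.7% of all genes tested in each direction. Cebpa, the earliest C/EBP factor of the lineage, and Cebpe, which follows it, thus changed in opposite directions.

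Spi1, at chr2:91082390-91115756 on the plus strand, was the most abundant regulator per length. It was at 804, 646, 665 and 723 CPM in WT and at 811, 612, 759 and 631 CPM in Cxcr2-/- replicates 1 to 4. The log2 fold change was -0.01 ± 0.12 (SE; 95% interval -0.31 to 0.28; adjusted p = 0.944). Its sign turned when WT replicate 1 or Cxcr2-/- replicate 2 or 4 was left out, with values no larger than 0.06.

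Runx1, at chr16:92601466-92826149 on the minus strand, was at 70.3, 89.9, 92.5 and 77.7 CPM in WT and at 74.3, 78.3, 85.3 and 78.7 CPM in Cxcr2-/- replicates 1 to 4. All Cxcr2-/- values lay within the WT range, and the log2 fold change was -0.06 ± 0.10 (95% interval -0.31 to 0.19; adjusted p = 0.653). Cebpd, at chr16:15887286-15891031 on the plus strand, was at 447, 334, 342 and 405 CPM in WT and at 420, 339, 327 and 280 CPM in Cxcr2-/- replicates 1 to 4. The ranges overlapped over most of their length (log2 fold change -0.16 ± 0.14, 95% interval -0.49 to 0.17; adjusted p = 0.364). Spidr, on the opposite strand, covers 15.0% of the exon bases of Cebpd.

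Cebpg, at chr7:35046422-35056573 on the minus strand, was at 48.1, 42.8, 39.9 and 41.9 CPM in WT and at 36.4, 46.3, 32.4 and 33.95 CPM in Cxcr2-/- replicates 1 to 4. Replicates 1, 3 and 4 of the knockout were below all WT mice, and replicate 2 was above all but 1 of them. The log2 fold change was -0.21 ± 0.12 (95% interval -0.50 to 0.07; adjusted p = 0.161). Without Cxcr2-/- replicate 2 it was -0.33 with an adjusted p of 0.0222. With all 8 mice it also passed with upper-quartile normalization (adjusted p = 0.0338), with library totals (0.0456) and with the non-neutrophil marker mean as a covariate (0.0476).

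Irf8, at chr8:120736358-120756694 on the plus strand, had the lowest level of the 9 and the widest spread. It was at 7.78, 7.90, 5.85 and 4.31 CPM in WT replicates 1 to 4 and at 5.01, 3.02, 10.0 and 12.3 CPM in Cxcr2-/- replicates 1 to 4. Replicates 3 and 4 of the knockout were above, and replicate 2 below, every WT mouse, and the log2 fold change of 0.23 ± 0.36 had a 95% interval from -0.64 to 1.11 (adjusted p = 0.628). Without Cxcr2-/- replicate 4 the value was -0.12. Of the 11 monocyte and macrophage markers, Ccr2 and F13a1 were the 2 that passed as higher, and they split the Cxcr2-/- mice in the same way. Ccr2, a chemokine receptor of inflammatory monocytes, was at 7.48, 8.85, 34.4 and 45.7 CPM in Cxcr2-/- replicates 1 to 4 and at 4.34 to 9.06 CPM in WT. F13a1, a coagulation factor gene used by monocytes, was at 8.11, 8.77, 38.4 and 57.8 CPM against 3.70 to 8.24 CPM. Csf1r and Adgre1, which encodes F4/80, were lower in every Cxcr2-/- mouse, and the other 7 did not pass. Csf1r was at 190 to 269 CPM against 403 to 499 CPM in WT. Adgre1 was at 9.60 to 16.3 CPM against 26.6 to 36.5 CPM. Csf1r and Adgre1 were also higher in Cxcr2-/- replicates 3 and 4 than in 1 and 2. With the non-neutrophil marker mean as a covariate, Irf8 passed the test with a log2 fold change of 0.53 and an adjusted p of 0.0143. That mean includes Csf1r, Adgre1, Ccr2 and F13a1, which differed between the groups, so it can carry part of the group difference. The part of other cells' RNA in the Irf8 values was not tested further.

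**Figure D2:**
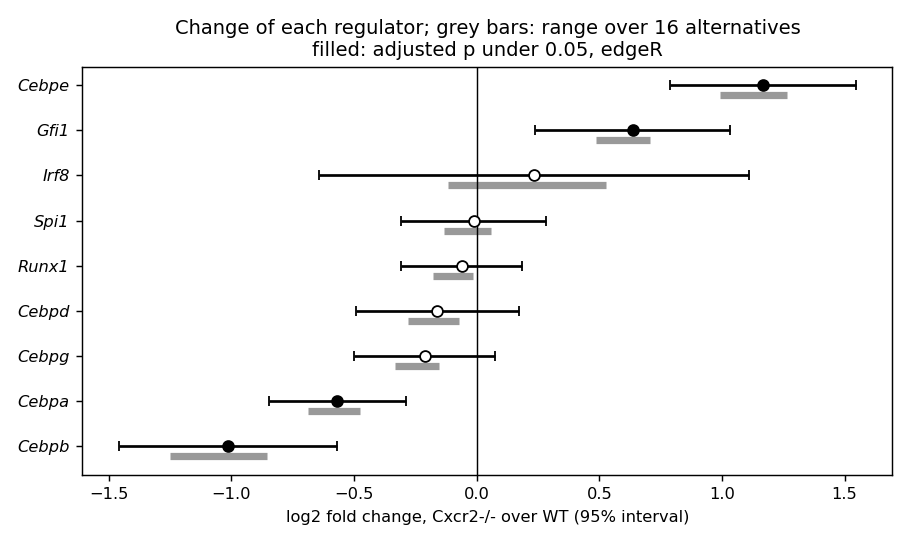
Log2 fold change of each regulator, Cxcr2-/- over WT, with its 95% interval (points and black bars; filled points have an adjusted p under 0.05 with edgeR) and the range over 16 alternative analyses (grey bars). The intervals of Cebpe, Gfi1, Cebpa and Cebpb leave out 0, and the grey bars of Spi1 and Irf8 cross it.

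Levels of different genes were compared as CPM per kilobase (kb) of annotated exon. Exon bases shared with other genes, as in Cebpb and Cebpd, were kept in the lengths. In WT the order of the group means was Spi1 (263 CPM per kb), Cebpb (246), Cebpd (102), Cebpe (66.7), Cebpa (10.1), Cebpg (7.68), Runx1 (6.87), Gfi1 (3.05) and Irf8 (0.916). Spi1 and Cebpb overlapped between mice, as did Cebpg and Runx1, while the other neighbours in the order did not. In Cxcr2-/- neutrophils Cebpe moved up to the second place, at 150 ± 39.0 CPM per kb, behind Spi1 (261) and ahead of Cebpb (122) and Cebpd (91.3). The ranges of Cebpe, Cebpb and Cebpd now overlapped with one another, and so did those of Cebpa (6.78), Cebpg (6.63) and Runx1 (6.58). Gfi1 (4.74) reached into the ranges of Cebpa and Cebpg, and Irf8 (1.08) stayed last without overlap.

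**Figure D3:**
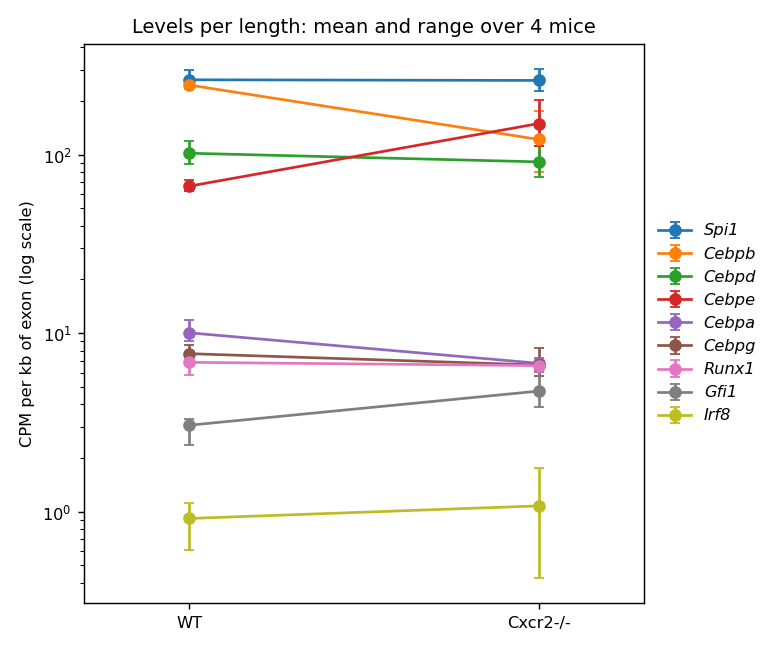
Level of each regulator per length (CPM per kb of exon, log axis) in WT and Cxcr2-/- neutrophils, as the mean and the range over 4 mice. Cebpe goes from 66.7 to 150 CPM per kb and crosses Cebpd and Cebpb.

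Within the C/EBP family, the summed level of the 5 genes was 432 ± 31.4 CPM per kb in WT and 376 ± 59.9 in Cxcr2-/- neutrophils, with overlapping ranges (404 to 467 and 316 to 444). Its makeup differed. Cebpe made up 15.3% to 15.5% of the family sum in the 4 WT mice, and 45.7%, 44.8%, 32.6% and 35.3% in Cxcr2-/- replicates 1 to 4. Cebpb made up 54.7% to 58.3% in WT and 26.0%, 23.8%, 43.0% and 36.8% in the same Cxcr2-/- replicates. Cebpd kept a like share, 22.1% to 25.5% in WT and 21.4% to 26.8% in the knockout, and Cebpa and Cebpg together stayed minor in all 8 libraries. The shares are descriptions of the CPM values above and were given no test of their own.

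**Figure D4:**
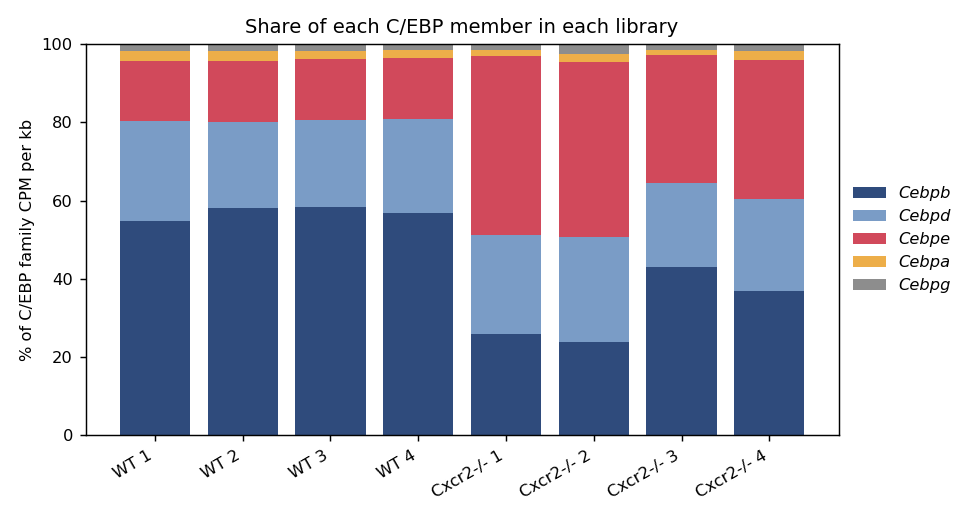
Share of each C/EBP gene in the family's summed CPM per kb (percent, stacked to 100) in each of the 8 libraries. The Cebpe share is 15.3% to 15.5% in WT and 32.6% to 45.7% in Cxcr2-/- mice.

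The ratios of single pairs within a library do not depend on the scaling of the libraries. The log2 ratio of Cebpe to Cebpd per kb was below 0 in every WT mouse (-0.73 to -0.52) and above 0 in every Cxcr2-/- mouse (0.58 to 0.85). The log2 ratio of Cebpe to Cebpb was -1.93 to -1.82 in WT, and 0.81, 0.91, -0.40 and -0.06 in Cxcr2-/- replicates 1 to 4, so that Cebpe exceeded Cebpb in replicates 1 and 2 alone. The log2 ratio of Cebpe to Cebpa went from 2.74 ± 0.17 to 4.43 ± 0.37. The ratio of Cebpa to Cebpb overlapped between groups, from -4.83 to -4.43 in WT and from -4.86 to -3.47 in the knockout.

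Early regulators were then set against late ones, with Spi1 placed among the late genes because its RNA stays high in mature neutrophils, although it also acts early. The early set was Cebpa, Cebpe, Gfi1 and Runx1, of which 2 were higher, 1 was lower and 1 did not pass. The late set was Cebpb, Cebpd and Spi1, of which 1 was lower and 2 did not pass. The mean log2 CPM of the early genes minus that of the late genes was -3.68 ± 0.12 in WT (-3.78 to -3.50) and -2.97 ± 0.25 in Cxcr2-/- neutrophils (-3.31 to -2.70). The early set thus stood 0.70 log2 units closer to the late set in Cxcr2-/- mice, with no overlap between the groups, and no test was made on this score because it is built from genes already described. With Spi1 left out, the difference was 0.90 (-3.46 to -3.19 in WT, -2.85 to -2.17 in Cxcr2-/-), and with Spi1 among the early genes it was 0.84, both groupings added after the data were seen. Cebpe, Gfi1 and Cebpb moved it in this direction, while the decrease of Cebpa went the other way.

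Genes of the steps at which these regulators act were described by lists. Whether the regulators act on each listed gene was not tested. For comparison, 23.7% of all genes tested were higher and 21.0% lower, with a median log2 fold change of 0.01. Secondary granule genes, for which C/EBPε is needed, were higher for 11 of 11 genes, with a median log2 fold change of 1.23. Fcnb (ficolin B) was at 22.5 to 29.3 CPM in WT and at 87.0, 81.2, 104 and 113 CPM in Cxcr2-/- replicates 1 to 4 (1.89 ± 0.13 on the log2 scale, adjusted p = 4.28e-07). Lcn2 (lipocalin 2) rose by 1.57, Cd177, a surface glycoprotein of neutrophils, by 1.49 and Ngp (neutrophilic granule protein) by 1.33 on the log2 scale. Across the 4 Cxcr2-/- mice, Cd177 (5095, 4145, 3541 and 3332 CPM in replicates 1 to 4) had the order of Cebpe, while Fcnb was highest in replicate 4, where Cebpe was lowest.

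Primary granule genes, which belong to the earlier promyelocyte step, were higher for 7 of 8 genes, with a median log2 fold change of 3.66. Elane (neutrophil elastase) was at 0.289 to 2.11 CPM in WT and at 12.0, 14.5, 55.5 and 93.2 CPM in Cxcr2-/- replicates 1 to 4 (log2 fold change 5.15 ± 0.69, adjusted p = 7.25e-05). Prtn3 (proteinase 3) rose by 4.86 on the log2 scale and had 20.4, 17.5, 63.5 and 92.1 CPM in these mice. Ms4a3, a marker of granulocyte and monocyte progenitors, rose by 2.75, and Prss57, a granule serine protease, rose by 1.26 and was nearly even among the Cxcr2-/- mice (9.30 to 12.5 CPM). For Elane and Prtn3 the knockout replicates 3 and 4 stood above 1 and 2, the same split as for Irf8, Ccr2 and F13a1. Cebpe and Gfi1 differed from this and were highest in replicate 1. The split was not limited to these genes. Ptgs2 had it too, at 40.6, 40.8, 109 and 127 CPM in Cxcr2-/- replicates 1 to 4. So did Fos, at 320, 197, 572 and 498 CPM, and both were below WT. Cd177 and Nfe2 did not have it. By chi-square per gene, the closest knockout pairs were replicates 3 and 4 (24.95) and replicates 1 and 2 (32.27). The other knockout pairs were at 42.17 to 88.51. What set these pairs apart was not tested.

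Genes of the late neutrophil list went both ways, with 5 higher, 5 lower and 1 of 11 not passing (median 0.07). Ptgs2 (cyclooxygenase 2) fell by 3.22, the chemokine gene Ccl6 fell by 2.17 and the receptor gene Trem1 fell by 1.65 on the log2 scale, and Mmp25, a membrane-bound metalloproteinase, rose by 1.04. Mmp25 had the order of Cebpe among the Cxcr2-/- mice (1001, 825, 701 and 630 CPM in replicates 1 to 4).

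Regulators that work beside the 9 genes were also listed. Of 26 tested partners and cofactors, 8 were higher, 14 lower and 4 did not pass (median -0.48), and Trib2 was below the filter. Ddit3, encoding the C/EBP-related dimer partner CHOP, fell from 41.1 ± 4.57 to 16.2 ± 1.67 CPM (log2 fold change -1.34 ± 0.11, adjusted p = 1.83e-06). Trib1, whose product leads C/EBPα protein to degradation, was at 783 to 905 CPM in WT and at 227, 167, 392 and 357 CPM in Cxcr2-/- replicates 1 to 4, and fell by 1.52 on the log2 scale. Runx2 fell by 0.65, whereas Runx1 had a log2 fold change of -0.06, and Rxra, a retinoid receptor gene, fell by 0.78.

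Of 10 tested progenitor regulators, 4 were higher, 2 were lower and 4 did not pass (median 0.12). Myb, a factor of proliferating progenitors, rose from 11.6 ± 0.162 to 21.6 ± 2.38 CPM (log2 fold change 0.90 ± 0.11, adjusted p = 2.57e-05), Erg rose by 0.88 and Nfe2 by 0.59, and Bcl11a, a factor of lymphoid and dendritic cells, fell by 0.96. Hoxa9, a factor of early progenitors, was at 0 in all 8 libraries. Monocyte-fate regulators were lower for 7 of 9 genes and higher for none (median -1.80). Egr1 fell by 3.54, Fos fell by 2.82, Nr4a1 fell by 2.57 and Egr2 fell by 2.15 on the log2 scale. These 4 are also immediate early genes, which respond within a short time to many stimuli.

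Among 9 receptors of granulopoiesis, 2 were higher, 3 lower and 4 did not pass (median -0.34). Csf3r, the receptor for G-CSF, a main growth factor of neutrophils, fell from 6960 ± 462 to 3334 ± 147 CPM (log2 fold change -1.06 ± 0.11, adjusted p = 1.11e-05). Csf1r fell by 0.93, Il6ra fell by 0.51, and Csf2rb, the shared receptor chain for GM-CSF and related cytokines, rose by 0.44 on the log2 scale. The counts of all these lists are descriptions beside the 44.7% of all genes that passed, and no list was tested against other genes.

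**Figure D5:**
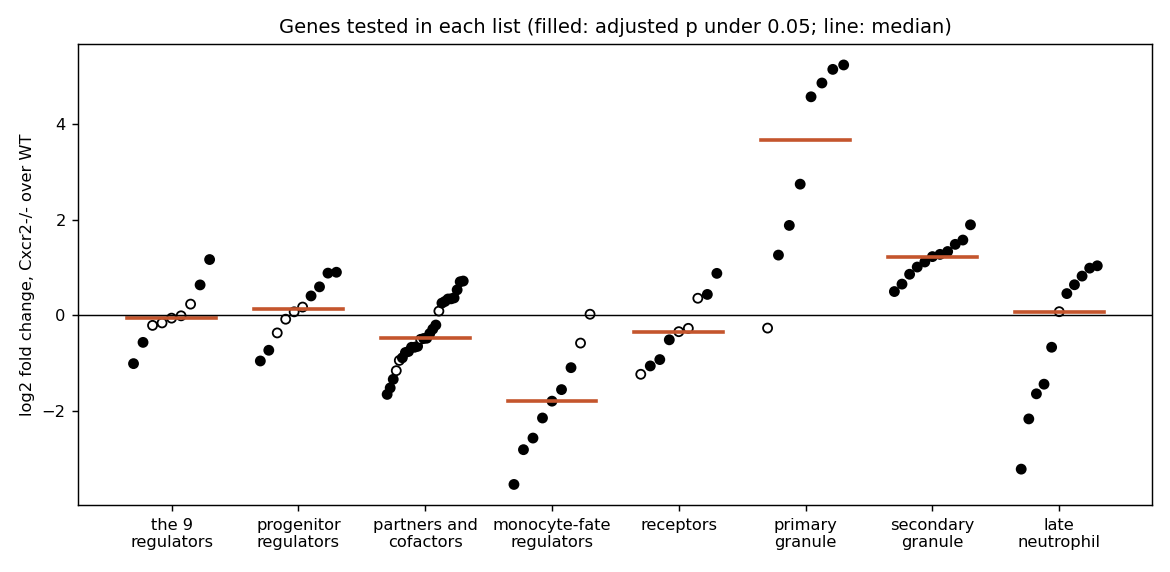
Log2 fold change (Cxcr2-/- over WT) of every tested gene in the 9 regulators and in the lists around them, sorted within each list, filled where the adjusted p is under 0.05 (edgeR), with the median as a line. All 11 secondary granule genes lie above 0, 7 of 9 monocyte-fate regulators passed below 0, and the 9 regulators lie on both sides.

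Genes with a profile most like that of each regulator were sought among 6901 genes with a mean of at least 10 CPM, by the root mean square difference of log2 (CPM + 1) over the 8 libraries after centring each gene. For Cebpe they were Nlrx1 (0.044), Galns (0.056) and Tbc1d2 (0.061), in a gene whose own log2 values spanned 1.69. For Gfi1 they were Lmtk2 (0.069), Slc4a2 (0.094) and Actn4 (0.095). For Cebpa they were Tspyl1 (0.066), Foxn2 (0.070) and Cnnm3 (0.088). For Cebpb they were Cd14 (0.14), Napa (0.15) and Nfkbid (0.15), with a span of 1.67 for Cebpb itself. For Irf8, which spanned 1.73, even the nearest genes were farther off, namely Ifi30 (0.16), Ctss (0.19) and Slc8a1 (0.26). The nearest gene was Gga1 (0.060) for Cebpd, Mfsd14b (0.059) for Cebpg, H2afj (0.055) for Spi1 and Edrf1 (0.063) for Runx1. Over 8 libraries these values describe likeness of profile alone.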

How the data were processed

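RNA of sorted spleen neutrophils from 4 WT and 4 Cxcr2-/- mice was sequenced, 1 library per mouse. Per the study's methods the authors used FastQC, a trimmer, STAR (genome mm10) and HTSeq. The deposited values are whole-number counts per gene, not normalized. The annotation release and strand setting of the counting are not given in the sources used here. GENCODE M21, matched without version numbers, holds 52133 of the 55414 genes listed and lacks 3281, which take 1.42% of the counts.

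Here, counts were compared in R 4.3.3 with edgeR 4.0.16 (TMM, filterByExpr, quasi-likelihood F test, Benjamini-Hochberg adjustment over 16778 genes, no covariate). SE is the log2 fold change divided by the root of F. The steps were checked on simulated counts. No pair of replicates was as close as sampling noise allows (chi-square 21.6 to 88.5 per gene). Nothing in the labels gives a batch. The age of 10 weeks and the groups came from the labels.

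The 9 regulators and the gene lists were chosen with earlier results of these data known. Named genes are the 9 regulators, Cxcr2, up to 4 genes of each list with the smallest adjusted p, list genes at 0 in all libraries, the nearest profiles and overlapping genes. Alternatives were DESeq2 1.42.0, 3 other normalizations, 2 other filters, a replicate block, a covariate from 44 markers of other cells, a 1.5-fold limit and each library left out.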

Additional observations from a re-analysis of the deposited data

Results flagged for a closer look

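Gfi1 in WT neutrophils had 1 mouse apart from the rest. WT replicate 3 was at 7.56 CPM, and the nearest of the other WT mice was at 10.3 CPM, a gap of 0.922 of the group's range, past the limit of Dixon's test at 95%. Of 20 sets of 4 values checked in this way 1 was flagged, and chance flags about 1 in 20.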

How the results depend on the processing

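Cebpe, Gfi1, Cebpa and Cebpb kept their direction and passed in all 16 alternatives run for each gene, which do not include the 1.5-fold limit. Their log2 fold changes ran from 0.99 to 1.26, from 0.49 to 0.71, from -0.69 to -0.48 and from -1.25 to -0.85. Cebpg passed with upper-quartile normalization (-0.33), with library totals (-0.30), with the covariate for other cells (-0.29) and without Cxcr2-/- replicate 2 (-0.33). Irf8 passed with that covariate (0.53) and turned to -0.12 without Cxcr2-/- replicate 4. Spi1 turned to 0.056 without WT replicate 1, 0.055 without Cxcr2-/- replicate 2 and 0.018 without Cxcr2-/- replicate 4, within -0.082 to 0.056 over the 8 libraries left out and -0.13 to 0.056 over all 16 alternatives. Irf8 ran from -0.12 to 0.50 over the libraries left out and to 0.53 over all alternatives. Upper-quartile normalization shifted the median of all genes by -0.12 relative to TMM, with 3076 genes higher and 4391 lower against 3969 and 3526, and library totals gave 3248 and 4080. With a limit of 1.5-fold in the main fit, 2628 genes were higher and 2628 lower, with 2 regulators higher and 1, Cebpb, lower. With DESeq2, Cebpa was past that limit too (-0.588). Leaving out each library gave 3426 to 3774 genes higher and 3062 to 3520 lower, 2 regulators higher and 2 to 3 lower, and an early minus late difference of 0.61 to 0.81. With Spi1 left out of the late genes it was 0.90. That difference has no value with the block or the covariate. Replicate numbers did not pair the mice (same-number correlations of deviations 0.15, -0.19, 0.24 and -0.31, and not every mouse correlated best with its own number). With the replicate block, 3719 genes were higher and 3349 lower, and the same 4 regulators passed. The cause of these changes was not tested. With 109 to 508 counts, Irf8 is limited by the spread between mice.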

Other observations

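C/EBPε also serves eosinophils, and 3 of their marker genes were tested. Epx (eosinophil peroxidase) was at 0.088 to 0.882 CPM in WT and at 1.06, 0.609, 2.24 and 5.10 CPM in Cxcr2-/- replicates 1 to 4 (log2 fold change 2.78, edgeR adjusted p = 0.00812). Prg2 (major basic protein) was at 0.116 to 3.74 CPM in WT and at 5.06, 2.63, 11.0 and 16.3 CPM in the same Cxcr2-/- mice (2.87, adjusted p = 0.0120). Both rose but overlapped between groups, and both were highest in Cxcr2-/- replicates 3 and 4, whereas Cebpe was highest in replicates 1 and 2. Which cells these RNAs came from was not tested. Siglecf, a surface receptor of mature eosinophils, fell by 0.57 on the log2 scale, from 37.7 to 55.4 CPM in WT and 28.7 to 35.2 CPM in Cxcr2-/- libraries.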
